A study of Homo sapiens with 37 samples.

Results

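Proximity-labelled RNA was compared between 2 proteins of the translation initiation complex eIF4F, the helicase eIF4A and the cap-binding protein eIF4E. The comparison used 8 of the 37 libraries of the series: 2 pulldowns and 2 inputs from cells carrying APEX-eIF4A, and 2 pulldowns and 2 inputs from cells carrying APEX-eIF4E. The libraries were chosen by construct and fraction as labelled, not by any measured value. For each RNA, the enrichment of the eIF4E pulldown over its input was subtracted from that of the eIF4A pulldown over its input, and the direct difference between the pulldowns was set beside it.

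All 8 libraries came from HEK293T, a human embryonic kidney cell line, labelled as naive, that is, without stress. APEX is a peroxidase that, given biotin-phenol and hydrogen peroxide, attaches biotin to molecules close to it. The cells received 500 µM biotin-phenol for 30 min and 1 mM H2O2 for 1 min, so both constructs and both fractions share this treatment. The pulldown is the RNA held on streptavidin beads, and the input is RNA from the same kind of cells without that selection. The labels do not state which eIF4A paralogue was fused, how much of each fusion was made, whether a line was a single clone, or whether replicates were separate cultures. The p-values thus rest on how far 2 libraries of a group differ, which could be technical spread alone.

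The eIF4F complex assembles on the capped end of an mRNA. Its subunit eIF4E binds the cap, its scaffold eIF4G joins the parts, and eIF4A unwinds RNA structure so that the small ribosomal subunit can load and scan. Many copies of eIF4A act outside the complex, and eIF4E is also bound by repressor proteins that keep it from eIF4G. An RNA near one protein and not the other would be seen as a difference between the 2 enrichments.

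The deposited table gives raw counts for 60483 Ensembl gene IDs and no gene symbols, and 0 of these IDs could be matched to a symbol in the gene table used here. Gene families, cell type markers and the transcripts of the baits themselves could therefore not be named or checked with that table. The results are given for groups of IDs and for 4 single IDs. Whether any of the 4 is the transcript of a bait was not tested. Total counts were 1428926 to 2629957 in the 4 inputs and 2095260 to 3276410 in the 4 pulldowns. The 10 IDs with the most counts, summed over the 20 unstressed libraries, took 73.0% to 75.3% of counts in the 4 inputs and 55.6% to 61.9% in the 4 pulldowns. After a filter on low counts, 12427 IDs (20.5%) were tested. The spread per ID was estimated over 20 unstressed libraries of 5 constructs, of which the C1-APEX pulldown pair stood apart. The log2 CPM values of its replicates 1 and 2 had a correlation of 0.761, where the pulldown pairs of the other 4 constructs had 0.904 to 0.951 (12427 IDs). The pair is in neither side of the comparison but enters the spread, so counts of called IDs are also given without replicate 1. The correlation does not tell which replicate is the odd one, and no fit without replicate 2 is given.

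No ID was called as different between eIF4A and eIF4E in pulldown over input. At an adjusted p under 0.05 (edgeR quasi-likelihood test, Benjamini-Hochberg), 0 of 12427 IDs were called (0%), and the smallest adjusted p was 1. An unadjusted p under 0.05 was reached by 251 IDs (2.02%), 138 with the higher enrichment for eIF4A and 113 for eIF4E. DESeq2 called 0 IDs and gave 126 such p-values. With only the 8 libraries compared, edgeR gave 431 among 11582 IDs. The 2.02% is below the share of 0.05 that evenly spread p-values would give. The test was thus cautious, and 0 calls do not show that no ID differs. The count was 0 without C1-APEX pulldown replicate 1 as well, and in each of the 8 fits that left out a library of the comparison. The median difference over all tested IDs was 0.01 log2 units.

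The width of the intervals differed with the level of the RNA. Over all tested IDs the 95% interval of the input-adjusted difference reached a median of 1.27 log2 units to either side, against 0.81 for the direct difference between pulldowns. For the 4394 IDs with a mean level under 3 log2 CPM (log2 of counts scaled to a common library size), which had a median of 9 counts per library, it reached 2.12. For the 1812 IDs between 5 and 7 log2 CPM it reached 0.65 and for the 219 between 7 and 9 it reached 0.41. Among the 2070 IDs at 5 log2 CPM or above, the interval lay wholly between -1 and 1 for 1616 (78.1%), so a 2-fold difference in either direction was outside it. Over all tested IDs this held for 2118 of 12427. The half-width was unsteady where the fitted difference was near 0, and the 2118 can include such IDs. At 3 to 5 log2 CPM, where its median was 1.13, it was 0.321 for ENSG00000169972.10 and 2.634 for ENSG00000067606.14. Without C1-APEX pulldown replicate 1 the intervals were narrower, with a median of 1.12 over all tested IDs and 1.86 under 3 log2 CPM, and lay between -1 and 1 for 1795 of the 2070 (86.7%).

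**Figure D1:**
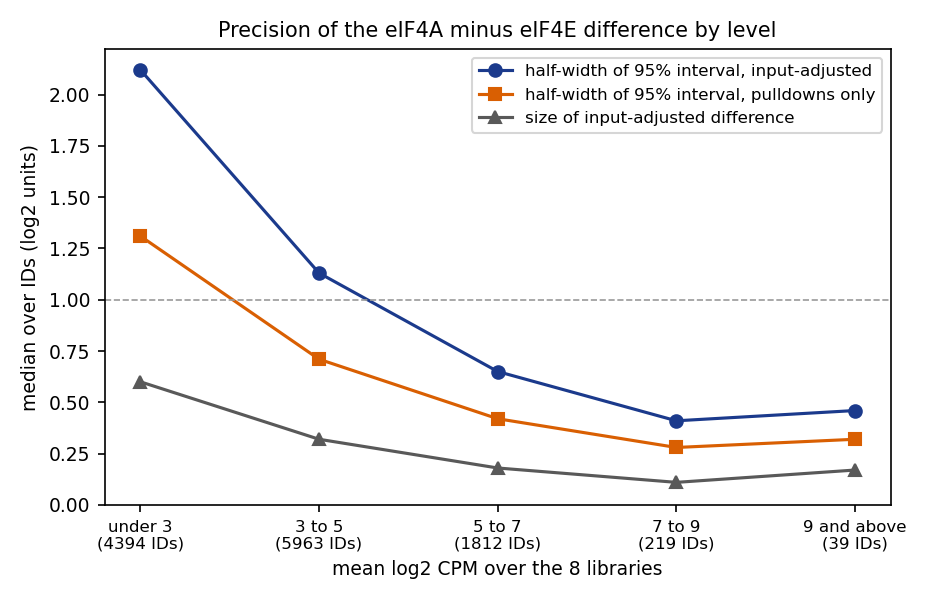
Medians over tested IDs, in log2 units, of the half-width of the 95% interval for the input-adjusted difference (circles) and for the difference between pulldowns (squares), and of the size of the input-adjusted difference (triangles), by mean log2 CPM over the 8 libraries. The half-width falls from 2.12 in the lowest group to 0.41 at 7 to 9 log2 CPM, and the median size of the difference, from 0.60 to 0.11, stays below it in each group; the dashed line marks a 2-fold difference.

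The distance between constructs was about that between replicates of one construct. A profile was the log2 CPM of a pulldown minus that of the input with the same number. Between 5 and 7 log2 CPM, the median absolute difference between profiles was 0.22 for the eIF4A pair and 0.28 for the eIF4E pair, and 0.23 to 0.28 for the 4 pairs of one profile from each construct. Between 7 and 9 log2 CPM the same values were 0.12, 0.21 and 0.15 to 0.16. The eIF4E replicates thus differed from each other by as much as, or more than, either differed from eIF4A at these levels. Both eIF4A profiles lay above both eIF4E profiles for 2111 tested IDs and below them for 2008, together 33.1%, of which none was called.

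The pulldowns compared directly did differ. Of 12427 tested IDs, 269 were called (2.16%; edgeR), 124 higher in the eIF4A pulldown (0.998%) with a median log2 difference of 1.11 and 145 lower (1.17%) with a median of -1.06. The replicates of the 2 pulldowns did not overlap for any of the 269, nor for 47.5% of all tested IDs. The inputs compared in the same way gave 92 called IDs (0.74%), 39 higher in APEX-eIF4A cells (0.314%) with a median of 1.18 and 53 lower (0.426%) with a median of -1.22. Without C1-APEX pulldown replicate 1 the counts were 837 and 229. Leaving out one library of the comparison gave 51 to 214 called IDs between pulldowns, 51 without eIF4A pulldown replicate 1, 77 without its replicate 2 and 58 without eIF4E pulldown replicate 1. Between inputs, the count was 25 to 35 without one of the 4 inputs and 75 to 91 without one of the 4 pulldowns. With library size in place of TMM scaling, which moved the median over all IDs by less than 0.1, 57 of 183 pulldown calls were higher in eIF4A (31.1%), against 46.1% with TMM.

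Differences between the pulldowns went the same way as differences between the inputs, which are separate libraries. The input difference was above 0 for 124 of the 124 IDs called higher in the eIF4A pulldown, with a median of 0.81, and below 0 for 144 of the 145 called lower, with a median of -0.90. Over all tested IDs it was above 0 for 6167 and below 0 for 6256, with a median of -0.01. Read from the inputs, the pulldown difference was above 0 for 39 of the 39 IDs called higher in eIF4A inputs, with a median of 0.84, and below 0 for 52 of the 53 called lower, with a median of -1.05. The lists shared 64 IDs, which were 23.8% of the pulldown calls and 69.6% of the input calls, and none of the 64 had opposite directions. Under the 14 alternative settings, the share of pulldown calls with an input difference of the same direction was 94.4% to 100%. The pulldown and input differences correlated at 0.472 over all 12427 tested IDs and at 0.769 over the 2070 at 5 log2 CPM or above; IDs are not independent, and each side shares its libraries across IDs.

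**Figure D2:**
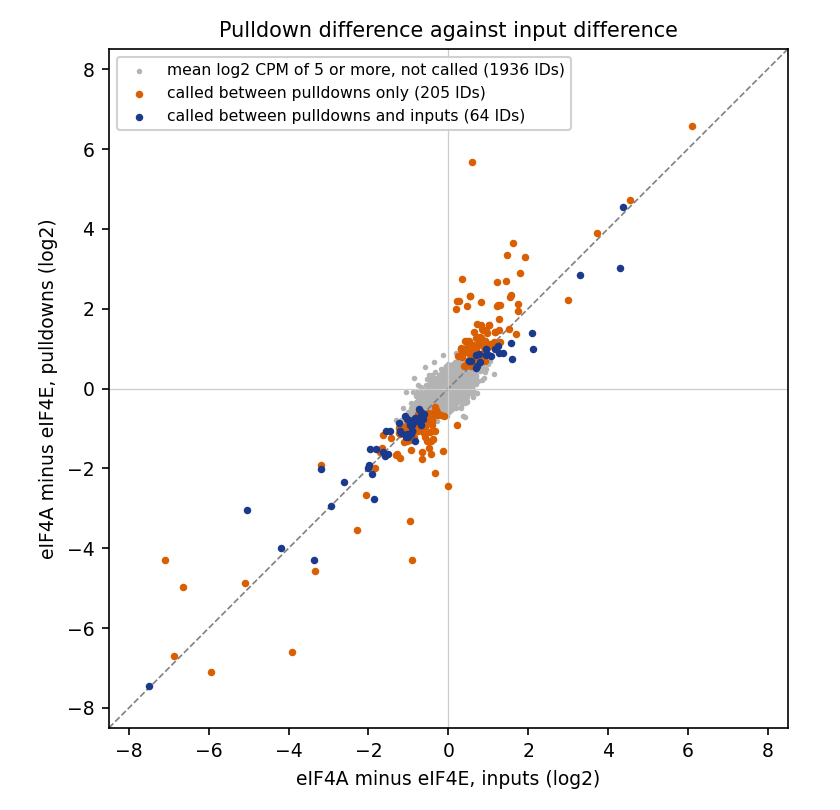
Difference between eIF4A and eIF4E in pulldowns (vertical axis) against that in inputs (horizontal axis), both in fitted log2 units; each point is a gene ID, and the dashed line marks equal differences. Grey points are IDs at 5 log2 CPM or above that were not called, and 268 of the 269 IDs called between pulldowns lie in the quadrants where both differences have the same direction; fitted values of IDs at 0 counts on one side are not measured sizes.

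The sign of the input-adjusted median followed the list by which IDs were chosen, and these values are descriptions. The median input-adjusted difference was 0.29 for the 124 higher and -0.16 for the 145 lower pulldown calls, and -0.38 and 0.09 for the higher and lower input calls. For the 64 IDs called in both, it was -0.17 for the 22 higher and 0.04 for the 42 lower. The interval lay wholly between -1 and 1 for 46 of the 64. Their median levels were 6 log2 CPM (higher) and 6.11 (lower). Among all tested IDs at 5 to 7 log2 CPM the interval did so for 1367 of 1812 (75.4%). Of the 205 IDs called between pulldowns but not between inputs, 14 had an unadjusted input-adjusted edgeR p under 0.05 and none passed the adjustment. Over all tested IDs 251 of 12427 (2.02%) had such a p. The 205 were picked by the pulldown difference, which is itself a part of the input-adjusted difference, so the 2 shares are not alike.

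The share of IDs called was higher at higher levels up to 9 log2 CPM. Between pulldowns, 0.888% of IDs under 3 log2 CPM were called, 1.61% at 3 to 5, 5.85% at 5 to 7 and 12.3% at 7 to 9. Between inputs the shares were 0.137%, 0.47%, 2.10% and 8.68%. Of the 39 IDs at 9 log2 CPM or above, 1 was called in each comparison (2.56%), and their median half-width was 0.46. A few IDs were seen with one construct and at 0 counts with the other. There were 3 IDs with 0 counts in the 4 eIF4A libraries and at least 40 counts in the 4 eIF4E libraries together, and 1 ID the other way round. Set against 3 counts over the 4 libraries at 0, they were at least 21.4-fold higher with eIF4E and at least 14.2-fold higher with eIF4A. Pulldown and input were both at 0 for these 4 IDs in the cells lacking them, so no enrichment could be computed there.

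Each construct by itself enriched and depleted RNA relative to its input. The eIF4A pulldown differed from its input in 271 of 12427 IDs (2.18%; edgeR), 144 higher (1.16%) with a median log2 fold change of 0.94 and 127 lower (1.02%) with a median of -1.16. The eIF4E pulldown differed in 312 (2.51%), 152 higher (1.22%) with a median of 0.95 and 160 lower (1.29%) with a median of -1.33. Without C1-APEX pulldown replicate 1 the counts were 487 and 544. With one library of the construct left out the counts fell to 88 without eIF4A input replicate 1, 91 without its replicate 2, and 149 and 97 without eIF4A pulldown replicates 1 and 2. For eIF4E they were 166 and 99 without input replicates 1 and 2, and 116 and 401 without pulldown replicates 1 and 2. The balance of directions rests on the TMM scaling: with library size the median over all IDs rose to 0.82 for eIF4A and 0.89 for eIF4E, and 3886 of 3940 and 4462 of 4525 calls were higher in the pulldown. The difference between the constructs was little touched by this, with a median over all IDs of -0.05 under library size.

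The 2 constructs, which share no library, called many of the same RNAs. They shared 77 higher IDs, 53.5% of the eIF4A and 50.7% of the eIF4E list, and 99 lower IDs, 78.0% and 61.9%. No ID was called higher for one and lower for the other. For the 77 shared higher IDs the median log2 fold change was 0.89 for eIF4A and 0.91 for eIF4E, and for the 99 shared lower IDs -1.31 and -1.46. The untargeted fusion APEX-GFP had medians of 0.91 and -1.09 for the same IDs, so the shared lists were not particular to the 2 initiation factors. Both eIF4E profiles lay below both eIF4A profiles for 25 of the 99 lower IDs and above them for 0. For the 77 higher IDs these counts were 13 and 13, and over all 12427 tested IDs 2111 and 2008. None of these IDs was called for the difference between constructs. The fold changes of the constructs correlated at 0.419 over all 12427 tested IDs and at 0.876 over the 2070 at 5 log2 CPM or above. Over all tested IDs, single profiles correlated at 0.338 within eIF4A, 0.298 within eIF4E and 0.283 to 0.347 across constructs. Over the 2070 more abundant IDs the same values were 0.812, 0.749 and 0.756 to 0.810. IDs within a library share its depth and scaling, and these correlations are descriptions.

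**Figure D3:**
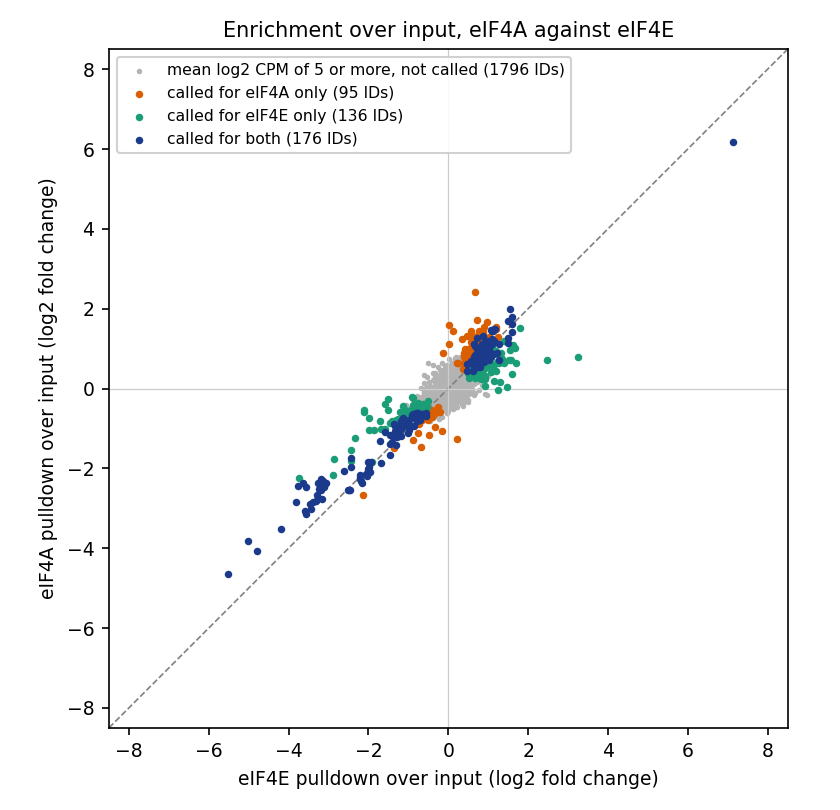
Pulldown over input for eIF4A (vertical axis) against eIF4E (horizontal axis), as fitted log2 fold changes; each point is a gene ID, and the dashed line marks equal enrichment. The 176 IDs called for both constructs lie in the quadrants of equal direction, since none was called in opposite directions. Of the 77 higher IDs 44 lie above the line, and of the 99 lower IDs 73 do, where 6374 of all 12427 tested IDs do. The 95 and 136 called for one construct alone lie around them.

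RNAs picked by APEX-GFP gave the same comparison without using either list. This untargeted fusion called 502 of 12427 IDs in pulldown over input (4.04%), 242 higher (1.95%) and 260 lower (2.09%). The 242 higher IDs had median log2 fold changes of 0.70 for eIF4A and 0.73 for eIF4E, with profile medians of 0.67 and 0.70 in the eIF4A replicates and 0.80 and 0.62 in the eIF4E replicates. The eIF4A values thus lay between the eIF4E values. The 260 lower IDs had medians of -0.63 and -0.70, with profile medians of -0.58 and -0.69 for eIF4A and -0.88 and -0.58 for eIF4E, which overlap. Both eIF4E profiles lay below both eIF4A profiles for 54 of the 260 lower IDs and above them for 23. For the 242 higher IDs these counts were 45 and 49, and over all 12427 tested IDs they were 2111 and 2008. The median input-adjusted difference was 0.01 for the higher and 0.07 for the lower IDs, beside 0.01 over all tested IDs. The GFP libraries shared the estimate of spread with the other libraries.

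The 4 single IDs were picked with their values in view, among IDs at 5 log2 CPM or above whose replicates did not overlap between the sides compared. For each direction they are the ID with the smallest unadjusted p of the input-adjusted difference and the ID with the largest called difference between pulldowns.

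ENSG00000164151.10 led the IDs with the higher enrichment for eIF4A. Its level was 22.6 and 33.7 CPM in the eIF4A inputs, 45.0 and 42.6 in the eIF4A pulldowns, 66.9 and 55.9 in the eIF4E inputs and 44.1 and 49.2 in the eIF4E pulldowns. The pulldowns of the constructs overlapped, and the inputs did not: both eIF4E inputs were above both eIF4A inputs. The input-adjusted difference was 0.97 ± 0.29 (SE; 95% interval 0.37 to 1.57), with an unadjusted p of 0.0027 and an edgeR adjusted p of 1, the pulldown difference -0.09 ± 0.19 and the input difference -1.06 ± 0.23 (edgeR adjusted p = 0.883 and 0.0184). The input call was lost in the 4 of 4 fits without one input library and with library size (-1.08; edgeR adjusted p = 0.0678).

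ENSG00000178921.12 led the IDs with the higher enrichment for eIF4E. Its level was 73.6 and 72.4 CPM in the eIF4A inputs, 74.6 and 77.3 in the eIF4A pulldowns, 27.9 and 20.6 in the eIF4E inputs and 47.4 and 44.0 in the eIF4E pulldowns. Both fractions were higher with eIF4A, and the gap was wider in the inputs. The pulldown over input was 0.93 ± 0.22 (SE) for eIF4E, which was called (edgeR adjusted p = 0.0151). It was 0.06 ± 0.18 (SE) for eIF4A, which was not (edgeR adjusted p = 0.95). With 1 eIF4E library left out, the eIF4E value ranged from 0.72 to 1.15. The input-adjusted difference was -0.87 ± 0.28 (SE; 95% interval -1.44 to -0.29), with an unadjusted p of 0.00462 and an edgeR adjusted p of 1. The pulldown difference was 0.73 ± 0.17 and the input difference 1.60 ± 0.22 (edgeR adjusted p = 0.0190 and 7.51e-05). The pulldown call was lost in the 4 of 4 fits without one pulldown library and with library size, while the input call held in the fits without one input library.

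ENSG00000159267.13 had the largest called increase between pulldowns among IDs at 5 log2 CPM or above. Its level was 56.4 and 63.8 CPM in the eIF4A pulldowns and 22.1 and 17.7 in the eIF4E pulldowns, against 40.3 and 42.2 in the eIF4A inputs and 25.4 and 22.0 in the eIF4E inputs. Neither fraction overlapped between constructs, and both were higher with eIF4A. The pulldown difference was 1.60 ± 0.21 (SE; edgeR adjusted p = 2.96e-05), the input difference 0.81 ± 0.25 (edgeR adjusted p = 0.166) and the input-adjusted difference 0.79 ± 0.33 (95% interval 0.11 to 1.47; edgeR adjusted p = 1).

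ENSG00000151247.11 had the largest called decrease between pulldowns among those IDs. Its level was 14.2 and 18.8 CPM in the eIF4A pulldowns and 125 and 130 in the eIF4E pulldowns, against 14.7 and 22.1 in the eIF4A inputs and 132 and 161 in the eIF4E inputs. Both fractions were lower with eIF4A, with no overlap. The pulldown difference was -2.95 ± 0.32 (SE; edgeR adjusted p = 1.61e-06) and the input difference -2.93 ± 0.36 (edgeR adjusted p = 2.02e-05), which left an input-adjusted difference of -0.02 ± 0.48 (95% interval -1.01 to 0.96; edgeR adjusted p = 1). The pulldown over input was -0.23 ± 0.40 for eIF4A and -0.20 ± 0.29 for eIF4E (SE). Whether this ID is the transcript of a bait or its fusion was not tested.

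**Figure D4:**
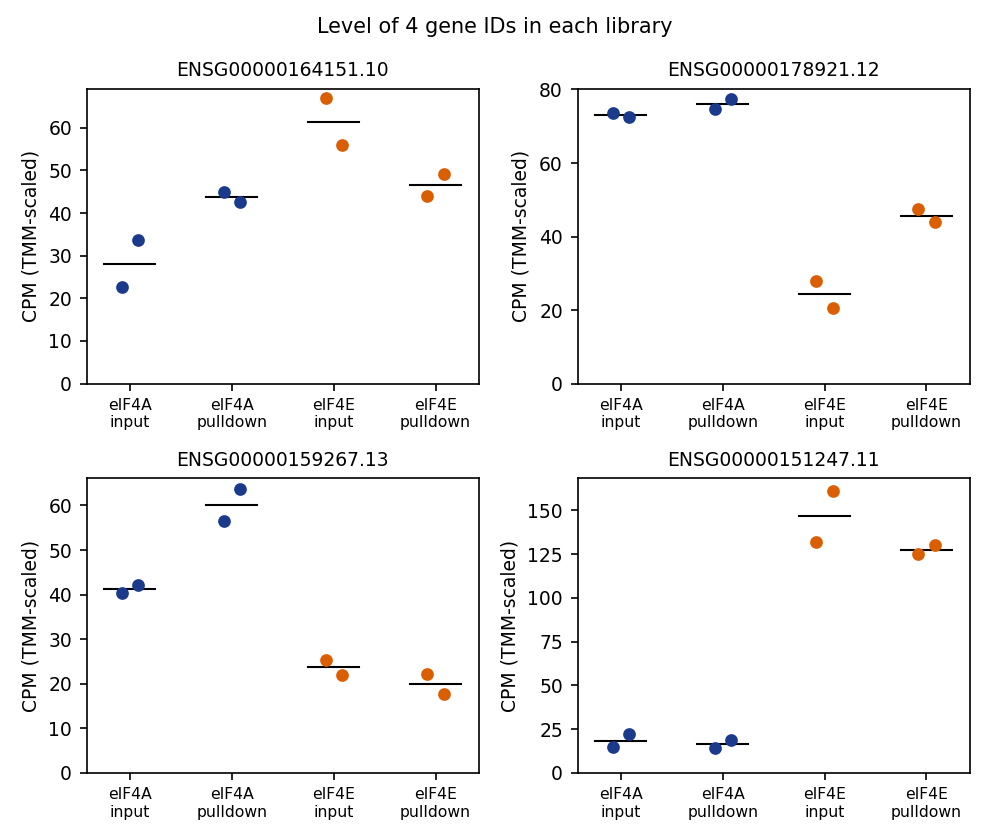
Level of 4 gene IDs, in TMM-scaled CPM, in the 2 input and 2 pulldown libraries of eIF4A (blue) and eIF4E (orange); points are libraries and bars are means of 2, on axes that start at 0. ENSG00000151247.11 lies at 14.2 to 22.1 CPM in the 4 eIF4A libraries and at 125 to 161 in the 4 eIF4E libraries, input and pulldown alike.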

How the data were processed

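The authors deposited raw counts per versioned Ensembl gene ID; cutadapt, HISAT2, featureCounts and GRCh38 are named in the submitters' processing notes, while their versions, the strand setting and the handling of shared reads were not given in the sources used here, so IDs with near-identical copies or overlapping neighbours are uncertain. Column names were matched to the labelled sample names; one name occurs for 2 samples and was read as the unstressed eIF4A input. edgeR 4.0.16 in R 4.3.3 was run on 20 libraries in 10 groups: filterByExpr, TMM, and glmQLFTest after a robust glmQLFit, with 2-sided p-values adjusted over all tested IDs. Each standard error is the size of the log2 fold change over sqrt(F). The log2 CPM used a prior count of 2. Alternatives were library size, DESeq2 1.42.0, no filter, a level minimum, the 8 libraries alone, a replicate block, each library left out and, added later, C1-APEX pulldown replicate 1 left out. The edgeR step was also run on simulated data, but its recovery of set changes is not given here. Replicate pairs differed by more than sampling noise (chi-square per degree of freedom 1.33 to 4.95). The comparison, the 24 gene lists, the marker genes and the rule for named genes were chosen with earlier results of these data known; lists, markers and rule need symbols and were not applied. Sequences were not used here for the same reason. The stress experiment was not analysed here.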

Additional observations from a re-analysis of the deposited data

Results flagged for a closer look

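For ENSG00000164151.10 both eIF4A pulldowns lay above their same-numbered inputs, by 0.97 and 0.33 log2 units, and both eIF4E pulldowns lay below theirs, by -0.59 and -0.18. The difference itself, 0.97 ± 0.29 (SE), was tested and was not called (edgeR adjusted p = 1; 0.99 to 1 over the alternatives, with values of 0.75 to 1.36). For ENSG00000159267.13 the eIF4A values were 0.48 and 0.58 and the eIF4E values -0.20 and -0.30, with a difference of 0.79 ± 0.33 (SE; edgeR adjusted p = 1; 0.992 to 1 over the alternatives, with values of 0.64 to 0.95). Profiles of the 2 constructs on opposite sides of 0 were found for 1021 tested IDs (8.22%), of which 0% was called.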

How the results depend on the processing

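The input-adjusted count stayed at 0 under its 15 alternatives; the lowest smallest adjusted p was 0.509 and the highest count of unadjusted p under 0.05 was 684, both without eIF4E pulldown replicate 2. With library size, calls numbered 49 between inputs, 3940 for eIF4A and 4525 for eIF4E over input. With only the 8 libraries compared they were 775 between pulldowns, 191 between inputs, 437 for eIF4A and 493 for eIF4E over input. With one library left out, C1-APEX pulldown replicate 1 included, they ranged from 51 to 837, 25 to 229, 88 to 487 and 99 to 544 in the same order. The small input-adjusted value of ENSG00000151247.11 was 0.00 with DESeq2. With 1 library left out it ranged from -0.24 to 0.38, on both sides of 0. The cause of these changes was not tested. With the replicate block the counts were 0 input-adjusted, 246 between pulldowns, 85 between inputs, 232 for eIF4A and 293 for eIF4E; deviations of same-numbered libraries correlated at -0.122 to 0.147, and replicate numbers were read as names without pairing. Of the tested IDs, 2756 to 5354 had under 10 counts in an input and 895 to 1945 in a pulldown. The 10 IDs with the most counts over all libraries of the fit took 73.0% to 75.3% of counts in the inputs and 55.6% to 61.9% in the pulldowns.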

Other observations

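The RNAs most depleted by APEX-GFP were also looked at with the initiation factors, a choice made after their values were seen. The 37 IDs that GFP called lower with a log2 fold change under -2 had medians of -2.22 for eIF4A and -2.61 for eIF4E, and a median input-adjusted difference of 0.53, above 0 for 31 of 37. Profile medians were -1.72 and -2.40 for eIF4A and -2.65 and -2.38 for eIF4E, which overlap by a narrow margin. Both eIF4E profiles lay below both eIF4A profiles for 15 of the 37 IDs and above them for 3. Over all tested IDs the same counts were 2111 and 2008. None of the 37 was called for the difference, where 2 had an unadjusted edgeR p under 0.05 and the interval had a median half-width of 1.17. For the other 223 IDs called lower by GFP the median difference was 0.02.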
